A study of Homo sapiens with 9 samples.

Results

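Transcripts of 10 genes for amino acid transporters were followed in MDA-MB-231 cells, an established human breast adenocarcinoma line with mesenchymal features, after treatment with Compound Kushen Injection or its single-herb counterparts. The genes were chosen by symbol (SLC7A5, SLC3A2, SLC7A1, SLC7A2, SLC1A4, SLC1A5, SLC38A1, SLC38A2, SLC6A9 and SLC43A1), and all 10 were found among the 24344 genes of the deposited count table. Cells grown in DMEM with fetal bovine serum received CKI (2 mg/mL total alkaloid), Kushen injection or Baituling injection for 48 h, with the single injections at the dilution equivalent to CKI. CKI is prepared from both herbs, Kushen and Baituling. Every library analysed came from treated cells, since untreated cells were not analysed here, so a value is high or low only in relation to another injection. Each injection had 3 RNA sequencing libraries, numbered as replicates in the labels. Whether they came from separate cultures is not stated, so the p-values measure the spread among these libraries of 1 cell line, which may be technical.

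Cells take up amino acids through families of carriers with overlapping cargo. Sodium-coupled carriers concentrate small neutral amino acids and glutamine inside the cell, and exchangers then trade these for essential amino acids such as leucine that activate the growth kinase mTORC1. SLC7A5 (LAT1) is such an exchanger and reaches the membrane only when bound to the glycoprotein encoded by SLC3A2 (CD98hc or 4F2hc). Many of these genes are induced by the transcription factor ATF4 when amino acids are scarce or the endoplasmic reticulum is stressed, and tumor cells often express SLC7A5 and SLC1A5 at high levels.

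Library totals ran from 20144628 to 23782071 counts. Of these plain totals, the 10 genes together received the largest share in CKI (0.234% to 0.235%). The share was smaller in Baituling (0.186% to 0.190%) and smallest in Kushen (0.173% to 0.181%). The member with the fewest reads, SLC1A4, still had 200 counts or more in each library. Of the markers of the line, VIM, CD44, AXL and CAV1 were present in each of the 9 libraries at 162 CPM or more, while ESR1 and PGR, expected to be low, stayed at or below 0.177 CPM. CDH1 and EPCAM, epithelial markers also expected to be low, were at 0.443 to 2.81 CPM and 6.93 to 13.8 CPM, both highest in Baituling. These markers moved with the injections as well, VIM being lowest in CKI (337 to 364 CPM), higher in Kushen (562 to 599) and highest in Baituling (2014 to 2116), and the part of this shift in the results below was not tested. Expression is given in CPM, the count scaled to a common library size with TMM, which assumes that most genes do not differ. By count this did not hold against Baituling, where 76.1% of genes in CKI and 71.6% in Kushen had an edgeR adjusted p under 0.05. TMM raised the effective size of the CKI libraries (factors of 1.075 to 1.099) and, less so, of Kushen (1.024 to 1.047). It lowered that of Baituling (0.877 to 0.899). The shares of the 10 genes given above are of plain totals, and on the TMM scale most of the gap between CKI and Baituling was gone. The difference in share on the TMM scale was not tested. With plain library totals the median gene moved up by 0.075, 0.287 and 0.212 on the log2 scale in CKI against Kushen, CKI against Baituling and Kushen against Baituling, and changes are stated relative to the TMM scale. In bulk RNA, fewer cells that express a gene and less of its RNA per cell cannot be told apart.

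A gene was counted as changed when its adjusted p in edgeR's quasi-likelihood test was under 0.05. CKI was compared with Kushen to ask what the presence of Baituling went with. SLC3A2, SLC7A5, SLC1A5 and SLC6A9 were higher in CKI, and SLC7A2 and SLC38A1 were lower. Thus 6 of the 10 genes changed, where 39.8% of the 14195 genes tested did, 4 upward (19.6% of all genes) and 2 downward (20.2%). The libraries of CKI and Kushen did not overlap for 7 of the 10, against 49.5% of all genes. None of the 10 also passed a log2 fold change of 1, the threshold of the study, against 1.9% of all genes (1.7% higher and 0.197% lower). DESeq2 likewise placed 0 past that threshold, and 6 had an unadjusted edgeR p under 0.05, the largest change being 0.88 on the log2 scale. The median log2 fold change of the 10 was 0.04, beside 0.008 over all genes tested.

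Between CKI and Baituling, which differ in the presence of Kushen, 9 of the 10 genes changed, against 76.1% of all genes tested. The 3 genes SLC3A2, SLC38A2 and SLC7A5 were higher in CKI (39.1% of all genes), and the 6 genes SLC1A4, SLC1A5, SLC6A9, SLC43A1, SLC7A1 and SLC38A1 were lower (37% of all genes). Only SLC1A4 passed the fold threshold, 1 of 10 against 19.1% of all genes (11.2% higher and 7.91% lower). Libraries did not overlap for 9 of the 10, against 78.3% of all genes. The median of the 10 was -0.24, beside 0.034 over all genes. With library totals the balance turned to 5 higher and 4 lower with a median of 0.05, so that the direction of the median depends on the scaling.

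Kushen and Baituling alone were set side by side in the last comparison. Here 9 of the 10 genes changed, against 71.6% of all genes. The 2 genes SLC38A2 and SLC7A2 were higher in Kushen (35.6% of all genes), and the 7 genes SLC1A5, SLC1A4, SLC6A9, SLC43A1, SLC7A1, SLC7A5 and SLC3A2 were lower (36.1% of all genes). SLC1A5 and SLC1A4 passed the fold threshold, 2 of 10 against 15.2% of all genes (8.5% higher and 6.73% lower). Libraries did not overlap for 9 of the 10, against 73.1% of all genes. The median was -0.31, beside 0.018 over all genes, and library totals gave 3 higher and 4 lower with a median of -0.09. The last 2 comparisons share the Baituling libraries, so their values are not independent of each other.

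**Figure D1:**
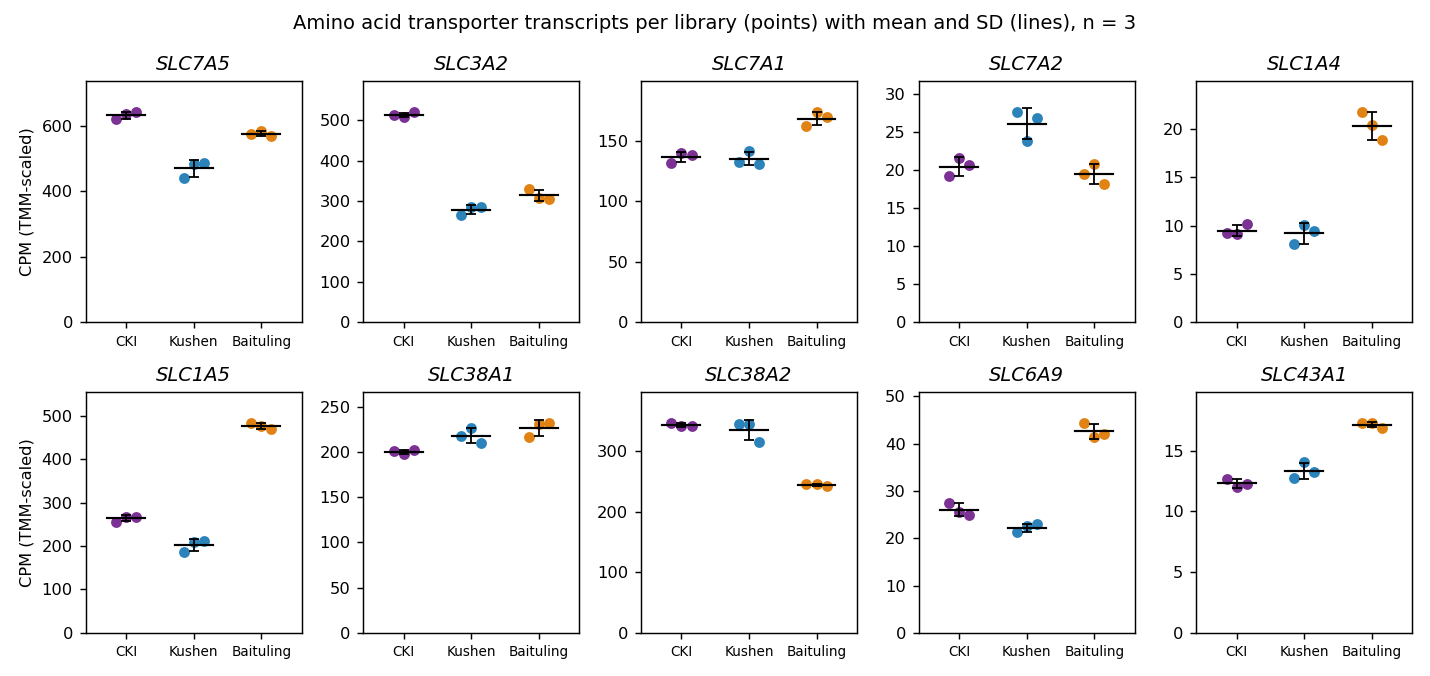
CPM (TMM-scaled, vertical axis from 0) of the 10 transporter genes in each library, grouped by injection on the horizontal axis. Points are libraries, horizontal lines group means and bars the SD (n = 3). SLC3A2 stands highest in CKI, and SLC1A4, SLC1A5 and SLC6A9 stand highest in Baituling.

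**Figure D2:**
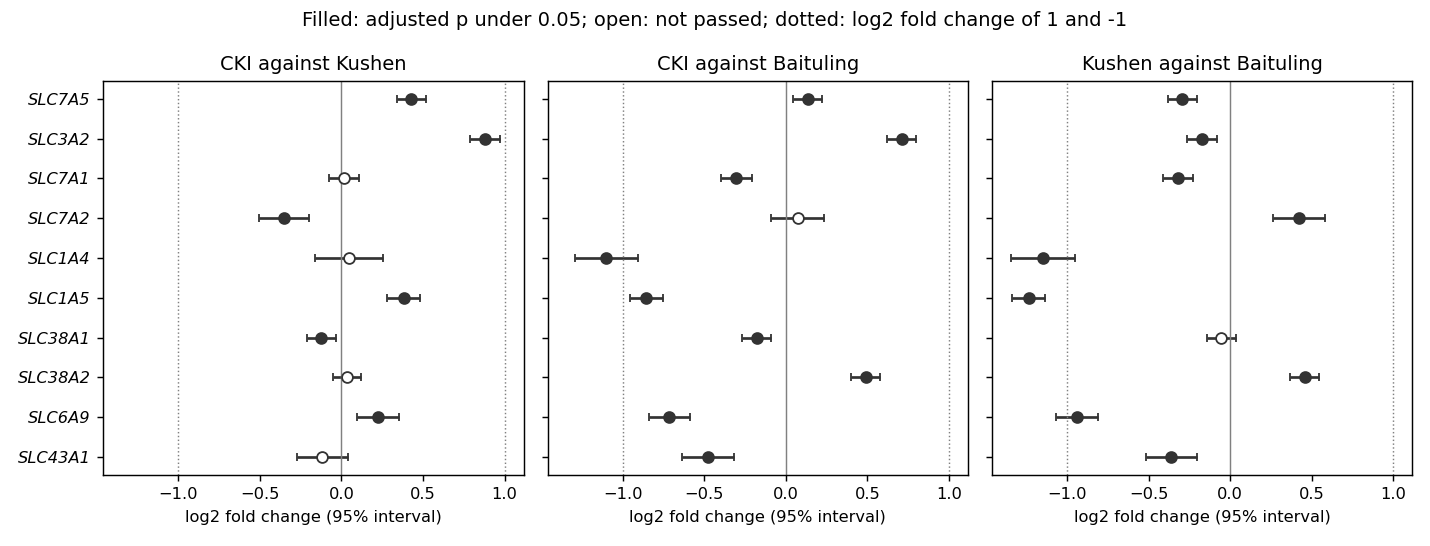
Log2 fold change (horizontal axis) of each gene in the 3 comparisons with its 95% interval from edgeR. Filled points had an adjusted p under 0.05, and dotted lines mark log2 fold changes of 1 and -1. The widest separations lie left of zero against Baituling, at -1.24 for SLC1A5 and -1.15 for SLC1A4 in Kushen.

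The partners of the leucine exchanger came first. SLC3A2 (chromosome 11, 62623476 to 62656352, build GRCh37), the heavy chain that carries SLC7A5 and several other light chains to the membrane, measured 512, 509 and 519 CPM in the CKI libraries, 265, 286 and 285 in Kushen and 330, 308 and 304 in Baituling. All CKI libraries lay above all others by a wide gap, and the Kushen libraries lay below those of Baituling. SLC3A2 was 1.84-fold higher in CKI than in Kushen (log2 fold change 0.88 ± 0.043, SE, edgeR adjusted p 2.94e-11) and 1.64-fold higher than in Baituling (0.71 ± 0.043, adjusted p 1.44e-11). The difference between Kushen and Baituling was small (-0.17 ± 0.044, adjusted p 0.00165) and turned to 0.04 with library totals (adjusted p 0.348).

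SLC7A5 (chromosome 16, 87863629 to 87903113), the LAT1 light chain for leucine and other large neutral amino acids, had 620.2, 636 and 640.5 CPM in CKI, 439, 484 and 487 in Kushen and 576, 584 and 567 in Baituling. The groups did not overlap, with CKI on top and Kushen lowest. It was 1.35-fold higher in CKI than in Kushen (log2 fold change 0.43 ± 0.043, edgeR adjusted p 3.27e-07). Against Baituling, CKI was higher by 0.14 ± 0.043 (adjusted p 0.00802) and Kushen lower (-0.29 ± 0.043, adjusted p 5.28e-06), although with library totals the latter was -0.082 with an adjusted p of 0.0565. A noncoding gene on the opposite strand shares 271 exonic bases, 5.7% of the annotated exons of SLC7A5, and the unstranded libraries cannot separate their of reads.

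Per length of the canonical GENCODE transcript (4556 bases for SLC7A5, 1885 for SLC3A2), the ratio of SLC7A5 to SLC3A2 within a library does not depend on the library scaling. It was 0.501, 0.517 and 0.511 in CKI, 0.685, 0.701 and 0.706 in Kushen and 0.723, 0.786 and 0.772 in Baituling. The CKI libraries held clearly less SLC7A5 transcript per SLC3A2 transcript than the others, with no overlap among the 3 injections. With 3 libraries a group, the smallest p of an exact two-sided permutation test is 0.1, so the ratio is given as a description. The absolute ratio rests on the length used: with all annotated exons the group means were 1.65, 2.26 and 2.46 in place of 0.51, 0.698 and 0.76.

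SLC43A1 (LAT3; chromosome 11, 57252007 to 57283253) also carries leucine and other large neutral amino acids but works without a heavy chain. It had 12.7, 12.0 and 12.2 CPM in CKI, 12.8, 14.1 and 13.2 in Kushen and 17.3, 17.3 and 16.9 in Baituling. The Baituling libraries stood above all others, while CKI and Kushen lay close together. CKI was lower than Baituling by a log2 fold change of -0.48 ± 0.075 (edgeR adjusted p 1.11e-05) and Kushen by -0.36 ± 0.075 (adjusted p 0.000269, but -0.15 and 0.0861 with library totals). CKI and Kushen did not differ past the threshold (95% interval -0.28 to 0.041, adjusted p 0.232).

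The stretches around the starts of 4 genes are shown because SLC7A5 and SLC3A2 encode partners whose transcripts moved by different amounts, and because SLC1A4 and SLC1A5, described next, were both lower in CKI and Kushen than in Baituling. They are RefSeq sequences on build GRCh38.p14, 180 bases before to 20 after the start, with matches to 4 motifs in capitals.
SLC7A5 (chr16:87869488-87869687, - strand): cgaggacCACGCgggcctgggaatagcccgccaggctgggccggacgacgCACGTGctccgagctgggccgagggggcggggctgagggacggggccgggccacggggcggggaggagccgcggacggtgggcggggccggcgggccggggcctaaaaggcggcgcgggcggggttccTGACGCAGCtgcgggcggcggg
SLC3A2 (chr11:62880716-62880915, + strand): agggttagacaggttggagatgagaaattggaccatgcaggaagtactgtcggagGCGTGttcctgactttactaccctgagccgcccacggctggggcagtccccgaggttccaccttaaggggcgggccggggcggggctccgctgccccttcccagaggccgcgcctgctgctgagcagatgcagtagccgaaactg
SLC1A4 (chr2:64989219-64989418, + strand): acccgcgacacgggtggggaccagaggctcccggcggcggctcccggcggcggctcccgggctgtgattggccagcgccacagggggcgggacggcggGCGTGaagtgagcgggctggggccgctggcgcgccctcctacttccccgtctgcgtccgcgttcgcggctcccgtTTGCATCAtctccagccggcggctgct
SLC1A5 (chr19:46788575-46788774, - strand): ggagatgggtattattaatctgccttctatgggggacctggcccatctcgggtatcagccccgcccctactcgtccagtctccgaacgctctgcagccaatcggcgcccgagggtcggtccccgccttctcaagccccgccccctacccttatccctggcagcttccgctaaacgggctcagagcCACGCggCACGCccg
The windows searched ran from 250 bases before to 50 after the start, on both strands. Motifs were the ATF4 C/EBP element (TGATGNAA), the E-box bound by MYC and related factors (CACGTG), an antioxidant response element (TGACNNNGC) and the core bound by the aryl hydrocarbon receptor (GCGTG). SLC7A2 was left out before starts were matched to the canonical transcript, and no start matched for SLC38A1, so 8 of the 10 genes were searched. The ATF4 element was found for 2 of the 8 (SLC1A4 and SLC7A1) and in 3.6% of 35116 promoters, the E-box for 2 (SLC7A5 and SLC43A1) and in 7.3%, the antioxidant element for 2 (SLC7A5 and SLC7A1) and in 13.3%, and the GCGTG core for 6 and in 36.5%. In SLC1A4 the ATF4 element starts 7 bases before the start on the opposite strand (TTGCATCA). From 180 bases before to 20 after the start, G and C made up 59% to 82.5% of the bases in the 8 genes. The median over all promoters was 59%, and the part of this in the matches was not tested. The E-box and the core can overlap, and a match is a description of letters only.

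The sodium-dependent exchangers of small neutral amino acids showed the largest differences of the 10 genes against Baituling. SLC1A5 (ASCT2; chromosome 19, 47278140 to 47291851), a main glutamine carrier of proliferating cells, had 256, 267 and 268 CPM in CKI, 185, 209 and 213 in Kushen and 483, 477 and 469 in Baituling. Every Baituling library lay far above the rest, and CKI lay above Kushen without overlap. Baituling held 2.35 times the level of Kushen (log2 fold change of Kushen against Baituling -1.24 ± 0.048, edgeR adjusted p 2.47e-14) and 1.81 times that of CKI (-0.85 ± 0.048, adjusted p 3.57e-12). CKI exceeded Kushen by 0.38 ± 0.048 (adjusted p 5.07e-06). On the opposite strand a noncoding gene shares 780 exonic bases, 23.4% of the annotated exons of SLC1A5, and the strand of reads from these bases was not recorded.

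SLC1A4 (ASCT1; chromosome 2, 65215611 to 65250999), which exchanges serine, alanine and threonine, was far scarcer. It measured 9.22, 9.11 and 10.1 CPM in CKI, 8.05, 10.1 and 9.40 in Kushen and 21.7, 20.4 and 18.8 in Baituling. CKI and Kushen overlapped, and all of their libraries lay below the lowest of Baituling. The log2 fold change was -1.10 ± 0.092 in CKI (edgeR adjusted p 1.57e-09) and -1.15 ± 0.093 in Kushen (adjusted p 1.33e-09) against Baituling. Between CKI and Kushen it was 0.047 with a 95% interval of -0.16 to 0.254 (adjusted p 0.736), and its sign changed when single libraries were left out. With library totals the values against Baituling were -0.81 in CKI and -0.94 in Kushen, inside the fold threshold.

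System A carriers SLC38A1 and SLC38A2 use the sodium gradient to accumulate glutamine and other small neutral amino acids. Their genes lie near each other on chromosome 12 (46576846 to 46663800 and 46751971 to 46766556). SLC38A2 had 347, 342 and 342 CPM in CKI, 346, 345 and 316 in Kushen and 246, 246 and 242 in Baituling. All Baituling libraries were lowest, whereas for SLC1A5 they were highest. The log2 fold change against Baituling was 0.49 ± 0.042 in CKI (edgeR adjusted p 2.52e-09) and 0.46 ± 0.042 in Kushen (adjusted p 9.14e-09). CKI and Kushen did not differ past the threshold (0.033, 95% interval -0.054 to 0.12, adjusted p 0.559), but with library totals the value was 0.11 and the adjusted p 0.0415.

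SLC38A1 varied least. It had 201, 198 and 202 CPM in CKI, 217, 227 and 210.4 in Kushen and 217, 232 and 232 in Baituling. CKI was lowest, and Kushen overlapped with Baituling. CKI was lower than Kushen by a log2 fold change of -0.12 ± 0.043 (edgeR adjusted p 0.0273), a call that was lost with library totals (-0.048, adjusted p 0.395) and without CKI replicate 1, CKI replicate 2 or Kushen replicate 2 (adjusted p 0.0628, 0.0977 and 0.129). Against Baituling CKI was lower by -0.18 ± 0.043 (adjusted p 0.00094) on the TMM scale but higher by 0.11 with library totals (adjusted p 0.0294), so that no direction can be given free of the scaling. Kushen and Baituling did not differ past the threshold (-0.055, 95% interval -0.145 to 0.035, adjusted p 0.257), and with library totals the value was 0.16 (adjusted p 0.0032).

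Because a ratio within a library cancels its scaling, the carriers were also set against each other per length. SLC1A5 relative to SLC38A2 was 1.23, 1.30 and 1.30 in CKI, 0.892, 1.01 and 1.12 in Kushen and 3.27, 3.22 and 3.22 in Baituling. SLC38A1 relative to SLC38A2 was 0.344, 0.343 and 0.3499 in CKI, 0.372, 0.3901 and 0.394 in Kushen and 0.523, 0.557 and 0.567 in Baituling. In both ratios the Baituling libraries lay above all others, and CKI and Kushen did not overlap. The ratio of SLC1A5 to SLC38A2 was chosen after the values had been seen and is a description.

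**Figure D3:**
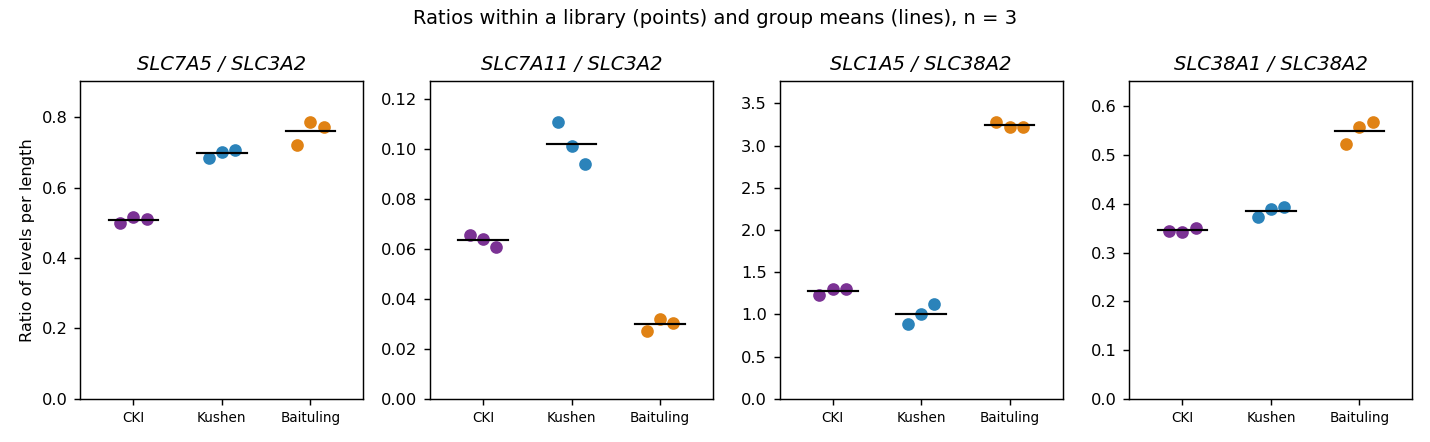
Ratio of the levels per transcript length of gene combinations within each library (vertical axis from 0), by injection. Points are libraries and lines group means (n = 3). SLC7A5 relative to SLC3A2 is lowest in CKI, at 0.501 to 0.517, and SLC1A5 relative to SLC38A2 is highest in Baituling, at 3.22 to 3.27.

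The cationic carriers import arginine and lysine without sodium, and they moved in different ways. SLC7A1 (CAT1; chromosome 13, 30083551 to 30169825), the widely expressed form, had 132, 139.8 and 138 CPM in CKI, 133, 141 and 131 in Kushen and 163, 174 and 169.7 in Baituling. Baituling was highest without overlap, and CKI and Kushen overlapped (0.016, 95% interval -0.078 to 0.109, edgeR adjusted p 0.806). The log2 fold change against Baituling was -0.30 ± 0.045 in CKI (adjusted p 4.70e-06) and -0.32 ± 0.045 in Kushen (adjusted p 2.92e-06), the former reduced to -0.016 with library totals (adjusted p 0.745).

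SLC7A2 (CAT2; chromosome 8, 17354597 to 17428082), which supplies arginine in macrophages and liver, was instead highest in Kushen. It had 19.1, 21.6 and 20.6 CPM in CKI, 27.5, 23.8 and 26.8 in Kushen and 19.4, 20.7 and 18.1 in Baituling. The Kushen libraries lay above all others, and CKI overlapped with Baituling. CKI was lower than Kushen by a log2 fold change of -0.35 ± 0.073 (edgeR adjusted p 0.000891) and Kushen was higher than Baituling by 0.42 ± 0.077 (adjusted p 6.16e-05). CKI against Baituling did not pass (0.073, 95% interval -0.091 to 0.236, adjusted p 0.406), but with library totals it was 0.36 (adjusted p 0.00038).

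SLC6A9 (GlyT1; chromosome 1, 44457172 to 44497139), the sodium- and chloride-dependent glycine carrier, followed the order of SLC1A5. It had 27.5, 25.6 and 24.9 CPM in CKI, 21.3, 22.6 and 22.9 in Kushen and 44.3, 41.5 and 42.0 in Baituling, with no overlap between groups. Against Baituling the log2 fold change was -0.71 ± 0.060 in CKI (edgeR adjusted p 1.80e-09) and -0.94 ± 0.061 in Kushen (adjusted p 5.58e-11). CKI exceeded Kushen by 0.22 ± 0.063 (adjusted p 0.00781), a call lost without CKI replicate 1 (0.18, adjusted p 0.0534). The opposite-strand gene CCDC24 shares 413 exonic bases, 7.9% of the annotated exons of SLC6A9.

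Levels of different genes were compared per length of the canonical transcript. In CKI the order by mean CPM per kb was SLC3A2 (272), SLC7A5 (139), SLC1A5 (91.5), SLC38A2 (71.6), SLC38A1 (24.8), SLC7A1 (18.6), SLC6A9 (8.11), SLC43A1 (4.90), SLC7A2 (2.68) and SLC1A4 (2.08), with every neighbouring pair further apart than its SDs. Kushen had the same order, but SLC1A5 at 70.2 ± 5.13 and SLC38A2 at 70.0 ± 3.50 CPM per kb (SD, n = 3) did not differ beyond their spread. In Baituling SLC1A5 stood at 165.3 ± 2.41 CPM per kb, next to SLC3A2 at 166.5 ± 7.31 and above SLC7A5 at 126 ± 1.86, and the first 2 of these did not differ beyond their spread. SLC1A4 was also above SLC7A2 there, at 4.45 ± 0.316 against 2.55 ± 0.172 CPM per kb. The first place of SLC3A2 rests on its short canonical transcript, since over all annotated exons it had 80.3 CPM per kb in CKI against 133 for SLC7A5.

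**Figure D4:**
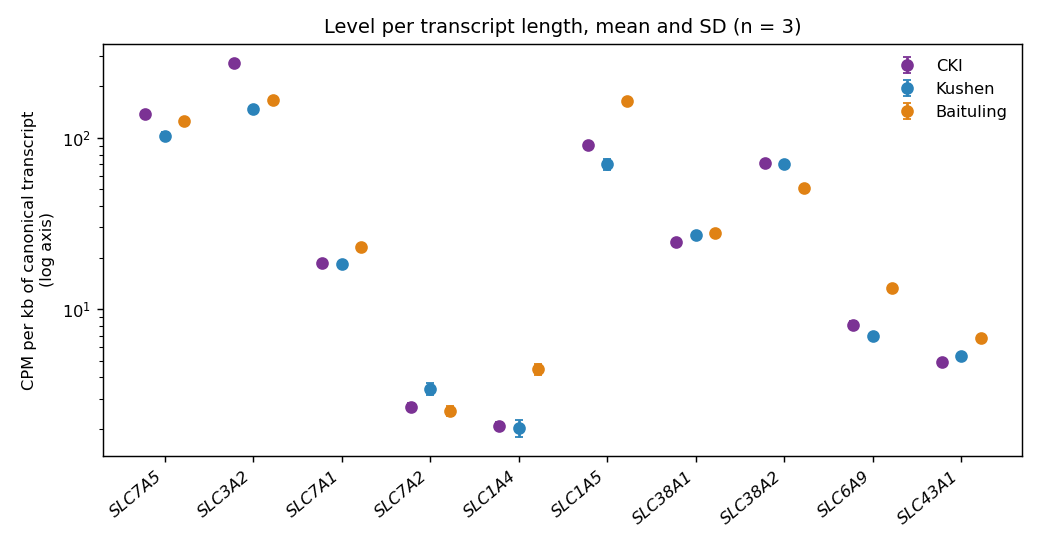
Mean CPM per kb of canonical transcript (vertical log axis) with SD (n = 3) for each gene and injection. Levels span from about 2.01 CPM per kb for SLC1A4 in Kushen to 272 for SLC3A2 in CKI.

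Other amino acid transporters of the plasma membrane were examined from a list of 30, of which 29 were in the table and 13 had enough counts to be tested. Of these 13, 4 were higher and 2 lower in CKI than in Kushen, and 7 were higher and 2 lower in each comparison with Baituling. The medians were 0.22, 0.84 and 0.31 on the log2 scale. The last median was unsteady: it was 0.77 without Baituling replicate 3, 0.48 without Baituling replicate 2, 0.52 without Kushen replicate 2 and 0.49 without Kushen replicate 3, 0.79 over the genes with at least 10 counts in every library, 0.75 with only the groups compared and 0.53 with library totals. Some of the 13 had fewer than 10 counts in some libraries. Over the 10 with at least 10 counts in every library, the medians were 0.15 in CKI against Kushen and 0.98 in CKI against Baituling. Of these 10, 4 were higher and 2 lower in CKI than in Kushen, and 7 higher and 1 lower in each comparison with Baituling. Thus in the comparisons with Baituling more of these genes were higher than lower. Over all genes tested, 39.1% were higher and 37% lower in CKI, and 35.6% and 36.1% in Kushen, than in Baituling. In CKI against Kushen 19.6% of all genes were higher and 20.2% lower. The shares changed, 6 of 13, 9 of 13 and 9 of 13, can be read beside the 39.8%, 76.1% and 71.6% of all genes.

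Among them, SLC7A11 (xCT), the cystine importer that pairs with SLC3A2 and feeds glutathione synthesis, had 171, 167 and 161 CPM in CKI, 149.9, 148 and 137 in Kushen and 45.8, 50.1 and 47.1 in Baituling. Relative to Baituling it was higher by a log2 fold change of 1.80 ± 0.051 in CKI (edgeR adjusted p 1.36e-16) and 1.60 ± 0.051 in Kushen (adjusted p 1.30e-15). SLC6A6, the taurine transporter, had 195, 193 and 193 CPM in CKI, 199, 207 and 205 in Kushen and 60.6, 68.2 and 65.8 in Baituling, a log2 fold change of 1.58 ± 0.047 and 1.65 ± 0.047. For both genes all Baituling libraries lay far below the others. SLC1A3 (EAAT1), a glutamate and aspartate carrier, had a mean of 5.56 CPM in Baituling and 13.7 in CKI (1.30 ± 0.120, adjusted p 7.40e-09) and was also higher in CKI than in Kushen (0.57 ± 0.106, adjusted p 0.000317). SLC43A2 (LAT4), the close relative of SLC43A1, was lower in Kushen than in Baituling (-0.82 ± 0.072, adjusted p 3.58e-09). SLC38A4 was lower (-0.52 ± 0.095, adjusted p 0.000251) and SLC7A7 higher (0.36 ± 0.117, adjusted p 0.0197, but 0.0715 with DESeq2) in CKI than in Kushen.

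Since SLC3A2 serves 6 light chains (SLC7A5, SLC7A6, SLC7A7, SLC7A8, SLC7A10 and SLC7A11), their levels per length were summed, a choice made after the values had been seen. SLC7A5 made up most of the sum in every library, 92.2% to 92.7% in Baituling, 84.9% to 86.0% in CKI and 82.4% to 84.6% in Kushen. SLC7A11 made up 3.48% to 3.75% in Baituling, 10.2% to 11.1% in CKI and 11.2% to 13.3% in Kushen. Divided by SLC3A2, the sum was 0.59 to 0.603 in CKI, against 0.832 to 0.837 for Kushen and 0.7797 to 0.849 for Baituling. Light chain transcript per heavy chain transcript was thus lowest in CKI, while Kushen and Baituling overlapped. The size of this ratio rests on the short canonical transcript of SLC3A2. Over all annotated exons SLC7A5 alone had 133 CPM per kb in CKI against 80.3 for SLC3A2.

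Carriers inside the cell were described in the same way. Of 8 lysosomal amino acid transporters tested, 6 were higher and 1 lower in CKI than in Kushen and likewise in CKI than in Baituling. In Kushen against Baituling 4 were higher and 2 lower. Over all genes 39.8%, 76.1% and 71.6% changed in these comparisons. By direction, 19.6% of all genes were higher and 20.2% lower in CKI than in Kushen. The shares were 39.1% and 37% in CKI against Baituling and 35.6% and 36.1% in Kushen against Baituling. Without CKI replicate 1 only 3 of the lysosomal transporters were higher and 1 lower in CKI than in Kushen, and DESeq2 gave 4 and 1. SLC36A1 (PAT1), which exports small amino acids from the lysosome, had 39.1, 36.8 and 37.6 CPM in CKI, 28.5, 31.4 and 31.6 in Kushen and 14.2, 17.2 and 15.7 in Baituling, with no overlap. Its log2 level was higher by 1.27 ± 0.072 in CKI (edgeR adjusted p 4.56e-12) and by 0.96 ± 0.074 in Kushen (adjusted p 6.05e-10) than in Baituling, and higher in CKI than in Kushen (0.31 ± 0.064, adjusted p 0.00082). The cystine exporter CTNS was higher by 0.61 ± 0.058 and 0.43 ± 0.059 against Baituling, and SLC15A4, a lysosomal histidine and peptide carrier, was lower in CKI than in Kushen (-0.33 ± 0.062). Among 9 mitochondrial carriers tested, 2 were higher and 1 lower in CKI than in Kushen. In CKI against Baituling 1 was higher and 5 lower, and in Kushen against Baituling 1 higher and 6 lower. The shares of all genes beside these counts are those given for the lysosomal list. Library totals gave 4 and 0, 4 and 1, and 2 and 2. Of all genes changed under library totals, 69.7%, 71.6% and 67.3% were higher in the injection named first. No direction of the mitochondrial list against Baituling is therefore free of the scaling. SLC25A44, which brings branched-chain amino acids into mitochondria, was higher by 0.36 ± 0.052, 0.79 ± 0.054 and 0.43 ± 0.055 in these comparisons. The glutamate carrier SLC25A22 was higher in CKI than in Kushen (0.37 ± 0.059), and the ornithine carrier SLC25A15 was lower against Baituling (-0.86 ± 0.117 in CKI, -0.63 ± 0.115 in Kushen).

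**Figure D5:**
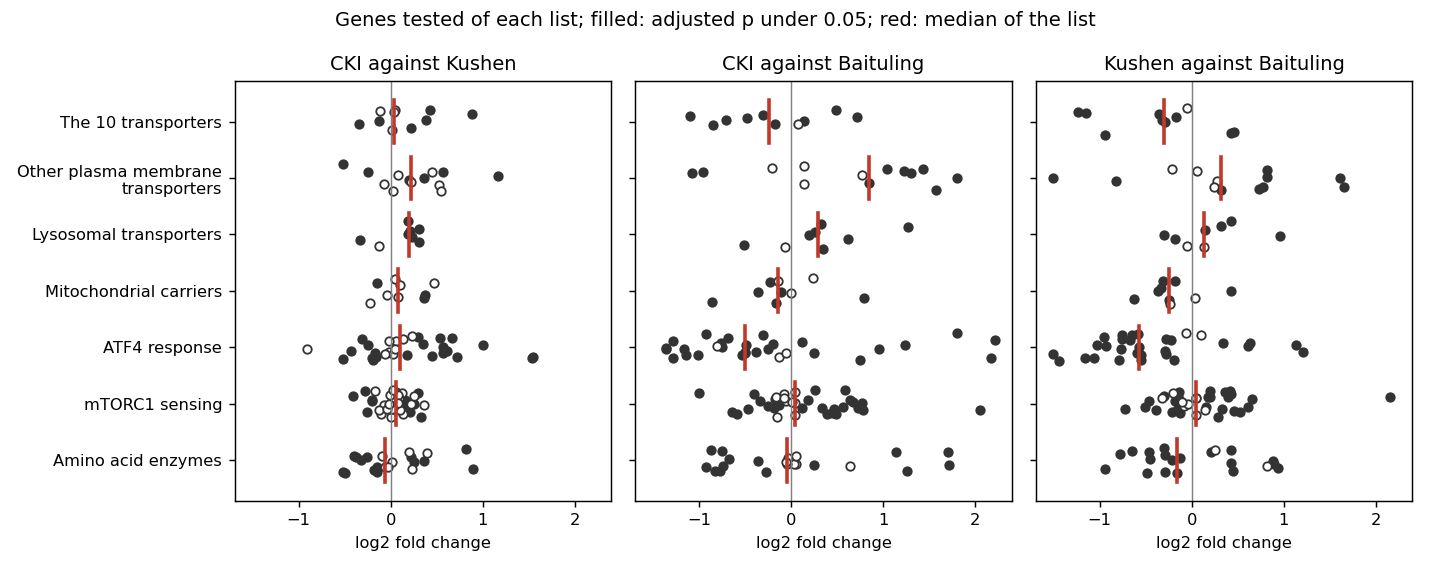
Log2 fold change (horizontal axis) of the genes tested in each list (rows) for the 3 comparisons. Filled points had an adjusted p under 0.05 in edgeR, open points did not, and red bars are list medians. The median of the ATF4 list lies at -0.50 and -0.58 against Baituling, and that of the other plasma membrane transporters at 0.84 and 0.31, the latter being 0.77 without Baituling replicate 3.

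ATF4 and genes of the amino acid response were examined because several of the 10 transporters are known targets of this factor. Of 30 genes tested from a list of 31, 13 were higher and 8 lower in CKI than in Kushen, with a median of 0.096 on the log2 scale. In that comparison 19.6% of all genes tested were higher and 20.2% lower. Against Baituling 8 were higher and 19 lower in CKI (median -0.50), and 5 were higher and 23 lower in Kushen (median -0.58). Over all genes tested 39.1% were higher and 37% lower in CKI, and 35.6% higher and 36.1% lower in Kushen, than in Baituling. With library totals the counts of the list were 10 higher and 15 lower in CKI and 6 higher and 18 lower in Kushen. The medians were -0.21 and -0.37, so that more genes of the list were lower under either scaling. Of all genes changed under library totals, 71.6% were higher in CKI and 67.3% in Kushen than in Baituling. ATF4 itself, named after its values were seen, had 242, 255 and 258 CPM in CKI, 276, 276 and 293 in Kushen and 499, 467 and 466 in Baituling. Its log2 fold change against Baituling was -0.92 in CKI (edgeR adjusted p 3.20e-13) and -0.76 in Kushen (adjusted p 7.67e-12).

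Members of the list did not move as a block. PHGDH, the first enzyme of serine synthesis, had 19.5, 20.6 and 19.2 CPM in CKI, 14.97, 16.8 and 16.5 in Kushen and 43.4, 41.8 and 45.5 in Baituling, a log2 fold change of Kushen against Baituling of -1.44 ± 0.066. The transcription factor ATF5 was lower by a like amount (-1.51 ± 0.094). DDIT3 (CHOP), a stress-induced factor linked to cell death, went the other way, with 40.2, 43.1 and 41.4 CPM in CKI, 21.97, 19.3 and 21.1 in Kushen and 9.12, 7.57 and 10.2 in Baituling. CKI thus exceeded Baituling on the log2 scale by 2.21 ± 0.086 (edgeR adjusted p 1.33e-14). GDF15, a secreted stress factor, exceeded its level in Kushen by 1.54 ± 0.071 (adjusted p 1.29e-11) and in Baituling by 2.17 ± 0.076 when cells received CKI. For ATF3, a stress-induced factor, CKI exceeded Kushen by 1.53 ± 0.096.

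Genes that sense amino acids for mTORC1 changed about as often as all genes. Of 35 tested, 7 were higher and 5 lower in CKI than in Kushen, 16 and 10 in CKI than in Baituling and 15 and 11 in Kushen than in Baituling. Over all genes 39.8%, 76.1% and 71.6% changed. With library totals the numbers were 15 and 4, 22 and 4, and 19 and 4. Under that scaling most changed genes of any kind were higher in the injection named first, 69.7%, 71.6% and 67.3% of them. SESN3, a sestrin of the leucine-sensing family, stood out with 36.3, 35.5 and 32.2 CPM in CKI, 37.1, 37.3 and 37.3 in Kushen and 8.20, 8.88 and 8.06 in Baituling (log2 fold change 2.05 ± 0.074 and 2.15 ± 0.074). NPRL3, a subunit of the GATOR1 complex that restrains mTORC1, was lower against Baituling (-1.004 ± 0.070 in CKI, -0.72 ± 0.069 in Kushen). In CKI against Kushen the mTORC1 scaffold RPTOR was higher (0.33 ± 0.053) and LAMTOR2, a part of its lysosomal anchor, lower (-0.41 ± 0.061).

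Enzymes of amino acid metabolism were counted last. Of 21 tested, 5 were higher and 9 lower in CKI than in Kushen and likewise in CKI than in Baituling, and 7 were higher and 12 lower in Kushen than in Baituling. Over all genes tested, 19.6% were higher and 20.2% lower in CKI than in Kushen. The shares were 39.1% and 37% in CKI against Baituling and 35.6% and 36.1% in Kushen against Baituling. Library totals turned the counts of the enzymes to 11 higher and 7 lower in CKI and 7 higher and 6 lower in Kushen against Baituling. Of all genes changed under that scaling, 71.6% were higher in CKI and 67.3% in Kushen than in Baituling. No direction of this list against Baituling is therefore free of the scaling. The arginase ARG2 was higher in CKI than in Kushen (0.82 ± 0.098) and than in Baituling (1.70 ± 0.113). ASS1, an enzyme of arginine synthesis, was lower in CKI than in Kushen (-0.52 ± 0.067). ASL, which acts in the next step, was lower in Kushen than in Baituling (-0.94 ± 0.095), and in CKI against Kushen its value was 0.018 ± 0.099 (adjusted p 0.906).

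Genes with the most similar pattern were sought for the LAT1 partners among the 10060 genes that averaged 3 or more in log2 CPM. Pearson's r of log2 CPM over the 9 libraries served as the measure and is a description, since the libraries fall into 3 groups and share their scaling. For SLC7A5 the closest genes were NDRG1 (0.990), PSMC4 (0.983) and NFKBIE (0.9825), with group means ordered CKI, Baituling, Kushen as for SLC7A5. For SLC3A2 they were NOCT (0.987), TFF2 (0.987) and TGIF1 (0.987), all highest in CKI. An r above 0.95 was found for 36 genes with SLC7A5 and for 58 with SLC3A2.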

How the data were processed

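RNA of 9 libraries was sequenced as unstranded paired-end reads. The authors trimmed reads with Trim Galore 0.3.7, aligned them with STAR 2.5.3a to hg19 and deposited raw counts per gene without normalization. The counting program and annotation are not given in the sources used here. Reads of overlapping genes could therefore not be told apart. Of 24566 rows, 222 repeated an Ensembl gene with identical counts and were dropped. Symbols, positions and lengths came from GENCODE on GRCh37, the same assembly as hg19. Genes were filtered with filterByExpr (minimum count 10, total 15), which left 14195. TMM scaling and 1 quasi-likelihood fit of all 9 libraries with group as the only term were run in edgeR 4.0.16 (R 4.3.3), two-sided, with Benjamini-Hochberg adjustment over all genes tested. The common coefficient of variation was 4.53%. Intervals are 95%. DESeq2 1.42.0 and other settings served as alternatives.

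The genes and lists were chosen with earlier results of these data known. Named were the 10 transporters, in each comparison the 2 genes of each other list (3 for plasma membrane transporters) with the largest absolute change among those with an adjusted p under 0.05 that averaged 1 or more in log2 CPM, and the 3 genes most like SLC7A5 or SLC3A2. Some items that this rule names are not reported here. Promoter windows came from RefSeq. Replicates of a group differed by more than sampling noise (chi-square per gene 1.70 to 6.85) and were counted as 3 samples.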

Additional observations from a re-analysis of the deposited data

How the results depend on the processing

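The counts of changed transporters, 6, 9 and 9 in the 3 comparisons, were 6, 9 and 9 with upper quartile scaling, DESeq2 or the replicate block. Library totals mattered most. Under them 0 transporters passed the fold threshold between CKI and Baituling and 1 between Kushen and Baituling, and the log2 fold change changed sign for SLC38A1 (0.11 in CKI and 0.16 in Kushen against Baituling) and for SLC3A2 in Kushen against Baituling (0.04). Upper quartile scaling gave 0.014 for SLC38A1 in Kushen against Baituling. The cause was not tested.

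Leaving out 1 library gave 4 to 6 changed transporters in CKI against Kushen, with 4 without CKI replicate 1. In the comparisons with Baituling it gave 9 each. The number of the 10 past the fold threshold stayed at 0, 1 and 2. The count of changed genes, at an adjusted p under 0.05, ran from 4 to 6, 8 to 10 and 9 to 9 for the other plasma membrane transporters and from 20 to 22, 25 to 27 and 27 to 28 for the ATF4 response. Sign changes were limited to CKI against Kushen near zero: SLC7A1 (range -0.017 to 0.048, with -0.0012 without CKI replicate 2 and the lowest without Kushen replicate 3), SLC1A4 (range -0.043 to 0.12, with -0.0026 without CKI replicate 3 and the lowest without Kushen replicate 1) and SLC38A2 (range -0.019 to 0.054, the lowest without Kushen replicate 3). Lengths from all annotated exons, an alternative chosen after seeing the data, moved the ratio of SLC7A5 to SLC3A2 to 1.652 in CKI, 2.262 in Kushen and 2.464 in Baituling.

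Libraries with the same replicate number did not deviate together: the correlation of their deviations from the group means was -0.075 to 0.123, above 0.1 in 1 of 9 pairs, and 2 of 9 libraries correlated best with their own number. The replicate number as a block left 6, 9 and 9 transporters changed.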
